A study of Mus musculus with 9 samples.

Results

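Cytotoxic lymphocytes kill through a small set of effector genes, and 8 of them are described here in cells of the mouse liver after activation of YAP. The 8 genes were the granzymes Gzma, Gzmb, Gzmc and Gzmk, the pore former Prf1 (perforin), the granule membrane protein Nkg7, the death ligand Fasl and the cytokine Ifng (interferon gamma). They were chosen by name, as rows of the count table, out of 27998 genes, and all 8 had transcripts. Their totals ran from 153 unique molecular identifiers (UMIs, one for each captured transcript) for Gzmk and 542 for Prf1 to 27215 for Nkg7 and 36527 for Gzma.

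NK cells and cytotoxic T cells store granzymes and perforin in lytic granules and release them against a bound target cell. Perforin opens the target's membrane, the granzymes are serine proteases that then cleave proteins inside it, and Nkg7 sits in the granule membrane and takes part in granule release. Fasl kills by engaging the receptor Fas on the target, and Ifng acts at a distance on macrophages, endothelial cells and hepatocytes through its own receptor. The liver is rich in NK cells, in resident type 1 innate lymphoid cells (ILC1) and in NKT cells, a T cell type with an NK receptor that releases cytokines quickly.

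The cells came from collagenase-treated whole livers of C57BL/6 mice that all carried ROSA26-rtTA-IRES-EGFP, the doxycycline-responsive activator, and were fed doxycycline. WT mice had no tetYAP transgene and were fed for 7 days (2 libraries). YAP3d and YAP7d mice carried tetYAP, an inducible mutant YAP, and were fed for 3 days (4 libraries) and 7 days (3 libraries). The study describes this YAP as constitutively active through a point mutation at an inhibitory phosphorylation site. Per the study's methods the transgene was active in hepatocytes through an albumin Cre, so the lymphocytes themselves were not its target. YAP3d differs from WT in both the transgene and the length of feeding, and YAP7d in the transgene only. The labels list each library as a separate sample without naming animals, so the p-values measure the spread between libraries.

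The 9 libraries held 8562 cells, 293 to 2554 per library, and 1314878 to 25056881 UMIs. Median UMIs per cell lay between 3190.5 and 5069.5 in WT and YAP3d and between 5717.0 and 11471.5 in YAP7d, so YAP7d cells held more UMIs on the whole. This was not so in every class, since resting-CD8-like cells (medians of 5185.5 and 5571.0 in YAP7d against 4425.0 to 5830.0) and the Igfbp4 cluster (3453.5 to 4855.0 against 3467.0 to 4444.0) overlapped, and reading depth cannot be told apart from RNA content. Clusters were drawn without the 8 genes, so no class was defined by them. They gave 2314 lymphocytes in 9 clusters, and 6213 other cells. Levels below are CPM, the share of a gene among the UMIs of all genes in the cells of a class in a library, as the usual scaled count, for libraries with at least 10 cells of the class. Libraries also stood apart in ways that no label explains. Gm10709, a predicted gene, was at 340.0 to 611.4 CPM in YAP3d replicates 1 and 2 and all YAP7d libraries against 3.62 to 11.2 CPM in the rest, and Hspa1a, a heat shock gene, was at 9.14 to 11.5 CPM in YAP7d replicates 2 and 3 against 314.1 to 1337.9 CPM elsewhere. The libraries shared 46 cell barcodes. WT replicate 2, YAP3d replicate 4 and YAP7d replicate 3, the 3 libraries with over 1000 cells, varied together across the groups (r of their deviations from the group means over all lymphocytes 0.55 to 0.72), and a Cd3 UMI was found in 21.6% to 27% of their non-lymphocytes against 4.10% to 8.77% in the rest.

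The NK-like cells (356) carried their defining markers, Ncr1 in 94.7% and Klrb1c in 94.1% of cells and Eomes in 60.7%, with Cd3e in 3.09% and Cd3g in 12.4%. Any Cd3 UMI was found in 0% to 37.5% of NK-like cells by library, the highest shares (24.8% to 37.5%) in the 3 libraries with over 1000 cells. Without those cells Gzmb in NK-like cells differed by 1.18 from WT and 1.14 from YAP3d (log2, adjusted p = 0.00728 and 0.00442, edgeR). The ILC1-like cells (209) had Ncr1 in 77.5%, Klrb1c in 88.0%, Cxcr6 in 67.0% and Itga1 in 24.9% of cells, with Eomes in 2.87%. Against that name, Cd3g was found in 72.2% and Cd3e in 31.6% of them and no ILC1 marker was among the 10 leading genes of the cluster, so T cells cannot be told apart from ILC1 there. NKT-like cells (708) had Cd3e in 86.7% and Cxcr6 in 89.8% of cells. Klrb1c was found in only 53.7% of them, Zbtb16 in 24.9% and Cd4 in 22.2%. Other T cells with Cxcr6 therefore cannot be told apart from NKT cells there. Resting-CD8-like cells (311) had Cd8b1 in 92.9% and Ccr7 in 83.9% of cells. The remaining clusters are called by a leading gene, namely a Tnfrsf4 cluster of mixed T cells (255 cells, Cd8b1 in 31.0% and Cd4 in 18.8%), an Igfbp4 cluster (382 cells), an Ifit3 cluster (35 cells), gamma-delta-T-like cells (33) and a Cd200r2 cluster of CD8 cells (25).

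The promoters of 3 members are shown because these genes carry the results below, Gzmb for the granzyme that rose, Fasl for the gene that fell and Gzma for the granzyme that stayed level in NK-like cells. Each runs 5′ to 3′ along the gene's strand from 250 bases before the RefSeq start to 50 after it (GRCm38.p6), with all 3 genes on the minus strand, Gzmb at chr14:56262285-56262584, Fasl at chr1:161788446-161788745 and Gzma at chr13:113100932-113101231. Capitals mark AP-1 letters (TGANTCA), RUNX letters (TGTGGT) and T-box letters (GGTGTGA), searched on both strands.
Gzmb: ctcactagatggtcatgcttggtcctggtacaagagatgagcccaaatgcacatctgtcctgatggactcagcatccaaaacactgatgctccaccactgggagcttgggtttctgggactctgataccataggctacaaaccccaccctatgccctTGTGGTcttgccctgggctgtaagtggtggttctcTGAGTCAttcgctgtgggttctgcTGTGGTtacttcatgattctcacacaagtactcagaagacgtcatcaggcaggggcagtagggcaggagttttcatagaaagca
Fasl: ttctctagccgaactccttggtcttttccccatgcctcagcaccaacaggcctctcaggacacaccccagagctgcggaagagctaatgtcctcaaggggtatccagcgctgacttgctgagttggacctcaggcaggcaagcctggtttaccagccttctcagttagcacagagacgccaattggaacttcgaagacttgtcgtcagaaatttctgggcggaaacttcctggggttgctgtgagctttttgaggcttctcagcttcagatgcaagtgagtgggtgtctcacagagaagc
Gzma: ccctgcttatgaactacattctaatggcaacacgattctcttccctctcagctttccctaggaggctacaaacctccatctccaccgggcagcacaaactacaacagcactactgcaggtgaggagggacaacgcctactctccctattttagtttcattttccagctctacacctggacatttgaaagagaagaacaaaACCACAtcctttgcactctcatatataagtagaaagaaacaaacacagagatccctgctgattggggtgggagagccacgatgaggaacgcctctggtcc

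With the first transcribed base as 0, the Gzmb promoter held AP-1 letters at -58 between RUNX letters at -93 and -34, and the Gzma promoter held RUNX letters at -50 on the other strand. The Fasl window held none of the 3. AP-1 letters were in 7.81% of 32851 mouse promoters of this length and in Gzmb alone of the 8 members. RUNX letters were in 16.8% of all promoters and in 5 members (Gzma, Gzmb, Gzmc, Prf1 and Nkg7), and T-box letters in 3.98% and in 2 members (Gzmk and Nkg7). Of the other letters searched, the NFAT core (GGAAA, 61.3% of promoters) was in 4 members, STAT letters (TTCNNNGAA, 8.30%) in 3, the cyclic AMP element (TGACGTCA, 1.79%) in Gzmc only, and the NF-kB consensus (1.63%) and TEAD letters (GGAATG, 14.7%) in no member. The NFAT and STAT matches of Nkg7 overlapped. The windows of Gzmc (chr14:56234608-56234907) and Prf1 (chr10:61297586-61297885) are set at RefSeq starts that lie inside the gene spans given below, not at the outermost start. A match is a description of the letters and not a bound site.

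The members differed in which cells held them. Gzma (RefSeq gene 14938, chromosome 13, 113093824 to 113100981, minus strand) was a gene of NK-like and ILC1-like cells. NK-like cells held 9961.6 ± 653.7 CPM (SD, n = 8 libraries) and ILC1-like cells 6304.2 ± 2507.7 (n = 8), with NK-like higher in 7 of 7 libraries that had both. The Tnfrsf4 cluster followed at 298.5 ± 331.5 CPM (n = 9) and NKT-like cells at 34.0 ± 37.2 (n = 9). That NKT-like level did not stand out from cells that should lack the gene, which had 18.4 ± 14.9 CPM (n = 9). A Gzma UMI was found in 13.3% of NKT-like cells at a median of 4870.5 UMIs and in 18% of the 6213 non-lymphocytes at 5665.0, so single UMIs of Gzma were read as background.

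Gzmb, the granzyme that activates caspases in the target (RefSeq gene 14939, chromosome 14, 56258836 to 56262334, minus strand), had another order. ILC1-like cells led with 3939.3 ± 1180.5 CPM (n = 8) over NK-like cells with 1362.7 ± 647.0 (n = 8), and were higher in 6 of 7 libraries. The Tnfrsf4 cluster (718.7 ± 559.1, n = 9) and NKT-like cells (515.6 ± 167.8, n = 9) came next and changed places between libraries, the first being higher in 4 of 9. Resting-CD8-like cells were at 0 to 19.7 CPM in 5 libraries and non-lymphocytes at 11.7 ± 8.37 (n = 9).

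Gzmc (RefSeq gene 14940), which lies next to Gzmb in the granzyme cluster of chromosome 14 (56231397 to 56241647), was nearly a gene of ILC1-like cells. These held 528 of 623 UMIs (84.8%), while NK-like cells held 15. Its level in ILC1-like cells was 540.5 ± 488.3 CPM (n = 8), above that of NKT-like cells (9.30 ± 9.10, n = 9) in 8 of 8 libraries, and the SD shows how widely libraries spread. Only 27.3% of ILC1-like cells had a Gzmc UMI, and 55 of those 57 cells had a Gzmb UMI too.

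Gzmk (RefSeq gene 14945, chromosome 13, 113171630 to 113180965), a granzyme of memory-type CD8 T cells, was rare. Of its 153 UMIs, 71 came from the Cd200r2 cluster and 64 from the Tnfrsf4 cluster, in which the level was 48.0 ± 60.6 CPM (n = 9). In ILC1-like cells 0 UMIs were found in 209 cells.

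Prf1 (RefSeq gene 18646, chromosome 10, 61297751 to 61304684) was concentrated in NK-like cells, which gave 75.8% of its UMIs. Their level was 223.3 ± 136.8 CPM (n = 8) against 48.8 ± 30.5 in ILC1-like cells (n = 8), and NK-like cells were higher in 7 of 7 libraries. The Tnfrsf4 cluster had 11.3 ± 9.36 CPM (n = 9), followed by resting-CD8-like cells (7.23 ± 5.64, n = 5), the Igfbp4 cluster (7.19 ± 8.36, n = 8) and NKT-like cells (6.68 ± 6.22, n = 9), and these 4 did not differ beyond their spread.

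Nkg7 (RefSeq gene 72310, chromosome 7, 43437138 to 43438246) was the member shared most widely. It was found in every NK-like cell, and its level stepped down from NK-like (4417.0 ± 534.1 CPM, n = 8) to ILC1-like (3337.3 ± 466.6, n = 8) and NKT-like cells (1894.2 ± 349.3, n = 9), each higher than the next in all libraries with both. The Tnfrsf4 cluster (1827.6 ± 524.1, n = 9) could not be separated from NKT-like cells, which were higher in 5 of 9 libraries. Resting-CD8-like cells still held 764.3 ± 206.4 CPM (n = 5), unlike the Igfbp4 cluster with 39.0 ± 30 (n = 8) and non-lymphocytes.

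Fasl (RefSeq gene 14103, chromosome 1, 161780691 to 161788495) and Ifng (RefSeq gene 15978, chromosome 10, 118441046 to 118445894) were spread over NK-like, NKT-like and ILC1-like cells. Fasl had means of 221.0 ± 83.7, 183.9 ± 55.3 and 176.3 ± 86.5 CPM in these 3, in that order, and NKT-like and ILC1-like cells changed places in 4 of 8 libraries. Ifng was at 564.9 ± 349.4 CPM in NKT-like, 469.7 ± 215.9 in NK-like and 359.1 ± 162.2 in ILC1-like cells, with NKT-like above NK-like in 4 of 8 libraries. Because NKT-like cells were the most numerous, they gave the largest share of the UMIs of both genes, 41.7% of Fasl and 48.0% of Ifng.

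**Figure D1:**
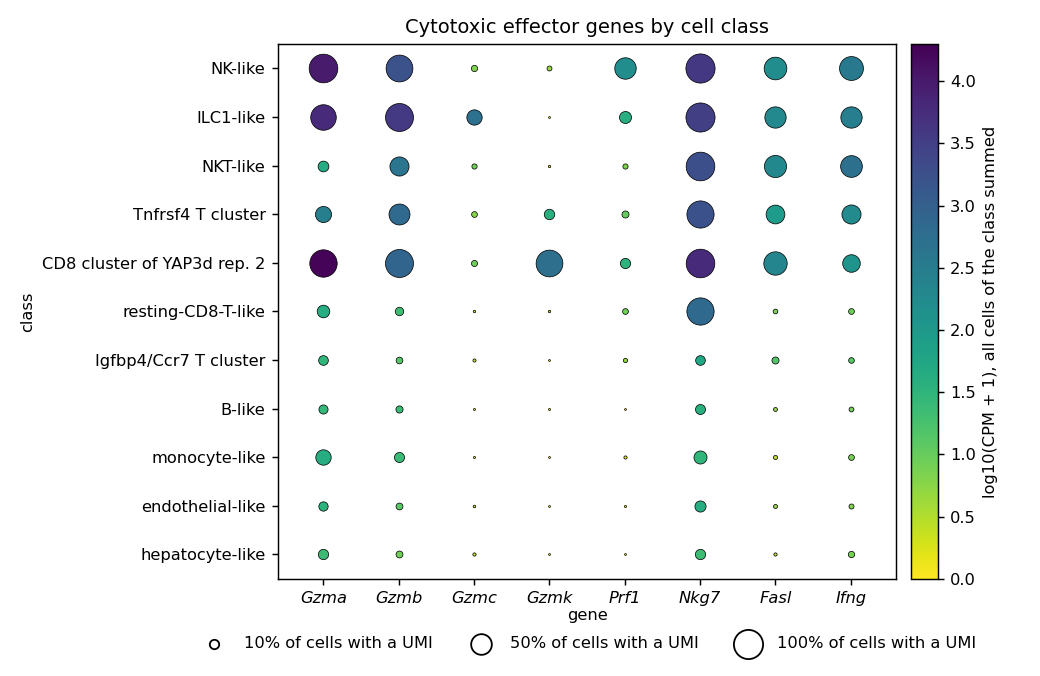
Levels of the 8 members in lymphocyte and other cell classes, with colour for log10(CPM + 1) over all cells of a class and dot area for the percent of cells with a UMI. Gzmb and Gzmc were highest in ILC1-like cells and Prf1 in NK-like cells, Gzma and Nkg7 were high in NK-like and ILC1-like cells and in the Cd200r2 cluster (the CD8 cluster of YAP3d replicate 2), and Fasl and Ifng were alike in NK-like, ILC1-like and NKT-like cells.

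The genes whose mean level per class was most like that of a member, by Pearson's r of log2(CPM + 1) over 15 classes of the same libraries, were Ncr1 (r = 0.96) and Styk1 (0.96) for Gzma, Xcl1 (0.97) for Gzmb, Klra5 (0.90) for Gzmc, Sidt1 (0.87) for Gzmk, Samd3 (0.94) for Prf1, Il2rb (0.98) for Nkg7, Klrc2 (0.95) for Fasl and Klrb1c (0.93) for Ifng. These values describe the classes and carry no test.

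The groups were compared within each class by edgeR's quasi-likelihood test on summed UMIs, with p-values adjusted over all genes tested in the class. A call is an adjusted p below 0.05. Over the classes, 24 pairs of a member and a class could be tested in each comparison. Of these, 2 were called between YAP7d and WT (over all genes and classes 1.16% of pairs were), 3 between YAP7d and YAP3d (2.27%), and 0 between YAP3d and WT (0.0113%), where 3 had an unadjusted p below 0.05 and DESeq2 also called 0. The comparisons share libraries, so their values stand side by side and not as separate evidence. With a term for the 3 libraries with over 1000 cells, each call below within NK-like and ILC1-like cells held. Then 4, 5 and 0 pairs were called between YAP7d and WT, YAP7d and YAP3d, and YAP3d and WT, adding Gzma (log2 difference from WT -1.32, adjusted p = 0.0176, edgeR) and Ifng in ILC1-like cells (-1.22 from WT and -1.07 from YAP3d, adjusted p = 0.0144 and 0.0155, edgeR) and Gzma in NKT-like cells (1.42 from YAP3d, adjusted p = 0.0352, edgeR), where its level is read as background below. Where leaving out a library leaves 1 library in a group, that library is assumed to vary like the other groups. This holds wherever a WT library is left out, and in ILC1-like cells also for a YAP7d library.

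In NK-like cells Gzmb was higher after 7 days of YAP, Fasl was lower, and Gzma was level. Gzmb was at 1007.8 and 820.0 CPM in WT replicates 1 and 2, and at 888.3, 1031.7 and 857.1 CPM in YAP3d replicates 1, 2 and 4. In YAP7d it was at 2187.3, 2430.3 and 1679.3 CPM. Every YAP7d library lay above every other library, and WT and YAP3d overlapped. YAP3d replicate 3 had 9 NK-like cells and did not enter.

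The YAP7d mean of 2098.9 ± 383.2 CPM (n = 3) was 2.49-fold that of WT on the fitted scale (913.9 ± 132.8, n = 2; log2 fold change 1.32, SE 0.21, adjusted p = 0.00898, edgeR). Against YAP3d (925.7 ± 93.1, n = 3) it was 2.41-fold (log2 fold change 1.27, SE 0.18, adjusted p = 0.00246, edgeR). Between YAP3d and WT the log2 difference of Gzmb was 0.05 (SE 0.22, adjusted p = 1, edgeR). In this class 6 members were tested, and 1 was called between YAP7d and WT where 2.52% of 3498 genes were, 2 between YAP7d and YAP3d where 5.57% were, and 0 between YAP3d and WT where 0% were.

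The rise was seen per cell as well. NK-like cells held 3.47 to 5.88 Gzmb UMIs per cell in the 5 WT and YAP3d libraries and 17.3 to 18.1 in the 3 YAP7d libraries. Their mean total over all genes also rose, from 3698.5 to 5699.2 UMIs per cell to 7127.3 to 10508.3. With each cell thinned to 1000 UMIs the log2 difference was 1.0 against YAP3d (adjusted p = 0.0215, edgeR) and 0.99 against WT (adjusted p = 0.0594, edgeR).

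Other measures moved with the YAP7d group in the same cells. Cycling cells, those with UMIs of at least 2 cycling genes, were 28.6% to 38.1% of NK-like cells in YAP7d and 0% to 5% elsewhere. This share also depends on the UMIs per cell, which were higher in YAP7d. As CPM the proliferation genes overlapped, at 1233.1 to 1620.3 in YAP7d and 98.3 to 1243.6 elsewhere. The highest of the latter were WT replicate 2 (1243.6) and YAP3d replicate 2 (1108.9). Among the cells that were not cycling Gzmb was at 1559.7 to 3519.1 CPM in YAP7d and 857.1 to 1195.3 CPM in the others, with log2 differences of 1.44 from WT and 1.42 from YAP3d (adjusted p = 0.0253 and 0.0120, edgeR). The immediate early and heat shock genes (11, such as Jun and Fos) summed to 1949.2 to 2760.6 CPM in YAP7d against 4856.8 to 7575.7 CPM, and their part in the Gzmb difference was not tested. Among the libraries with high Gm10709 levels, Gzmb in YAP7d lay above the 888.3 and 1031.7 CPM of YAP3d replicates 1 and 2. No WT library had such a level of Gm10709. A term for Gm10709 left the log2 difference of Gzmb from WT at 1.24 without a call (adjusted p = 0.373, edgeR). The call against WT also ended without WT replicate 2, at 1.36 (adjusted p = 0.119, edgeR). Where NK-like cells were set by marker UMIs in place of clusters, the difference from YAP3d was 0.76 (adjusted p = 0.0601, edgeR).

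Gzma in the same cells stayed between 8954.6 and 11194.3 CPM in all 8 libraries. Its log2 difference was 0.17 (SE 0.16) between YAP7d and WT and 0.14 (SE 0.14) between YAP7d and YAP3d, neither called (adjusted p = 0.643 and 0.598, edgeR). Per cell, the UMIs of Gzma were 79.8 to 94.1 in YAP7d and 36.0 to 57.9 in the others, in step with the total.

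Fasl in NK-like cells was at 319.5 and 206.4 CPM in WT, and at 275.0, 273.7 and 302.5 CPM in YAP3d replicates 1, 2 and 4. In YAP7d it was at 166.6, 115.3 and 108.6 CPM. Every YAP7d library lay below every other library. The YAP7d mean of 130.2 ± 31.7 CPM (n = 3) was 0.491-fold that of YAP3d (283.7 ± 16.3, n = 3; log2 fold change -1.03, SE 0.25, adjusted p = 0.0287, edgeR). Against WT (262.9 ± 80.0, n = 2) the log2 difference of -0.79 (SE 0.30) was not called (adjusted p = 0.174, edgeR).

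The Fasl difference was seen in the share of UMIs and not in UMIs per cell. NK-like cells held 0.821 to 1.38 Fasl UMIs per cell in YAP7d and 0.95 to 1.56 in WT and YAP3d, ranges that overlap, in cells with more UMIs of all genes. Reading depth and RNA content cannot be told apart here. The call against YAP3d ended without YAP3d replicate 1, 2 or 4 (adjusted p = 0.0765, 0.0526 and 0.141, edgeR), without YAP7d replicate 2 or 3 (0.0888 and 0.0538), and without the cycling cells (log2 difference -0.77, adjusted p = 0.129).

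The other 3 tested members gave no call in NK-like cells. Prf1 was at 491.6 and 97.8 CPM in WT, at 169.2, 294.8 and 131.1 in YAP3d and at 236.8, 290.6 and 75.0 in YAP7d. It was lowest in the library with the most NK-like cells of each group, and the groups overlapped (log2 difference -0.13 from WT and 0.00 from YAP3d, adjusted p = 0.954 and 0.997, edgeR). Nkg7 was at 4670.1 and 5376.3 CPM in WT, 4653.2, 4337.4 and 4547.7 in YAP3d and 3955.3, 4199.1 and 3596.8 in YAP7d.

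The 3 groups did not overlap for Nkg7, with YAP7d lowest, yet the log2 differences of -0.26 from WT and -0.10 from YAP3d were not called (adjusted p = 0.463 and 0.741, edgeR). Ifng was at 639.1 and 553.9 CPM in WT, 867.2, 350.9 and 297.5 in YAP3d and 522.7, 280.6 and 245.9 in YAP7d. Each WT library lay above the YAP7d libraries, while YAP3d spanned both, and no comparison was called (log2 differences -0.65 and -0.28, adjusted p = 0.397 and 0.679, edgeR). Gzmc and Gzmk were too rare in NK-like cells to be tested.

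**Figure D2:**
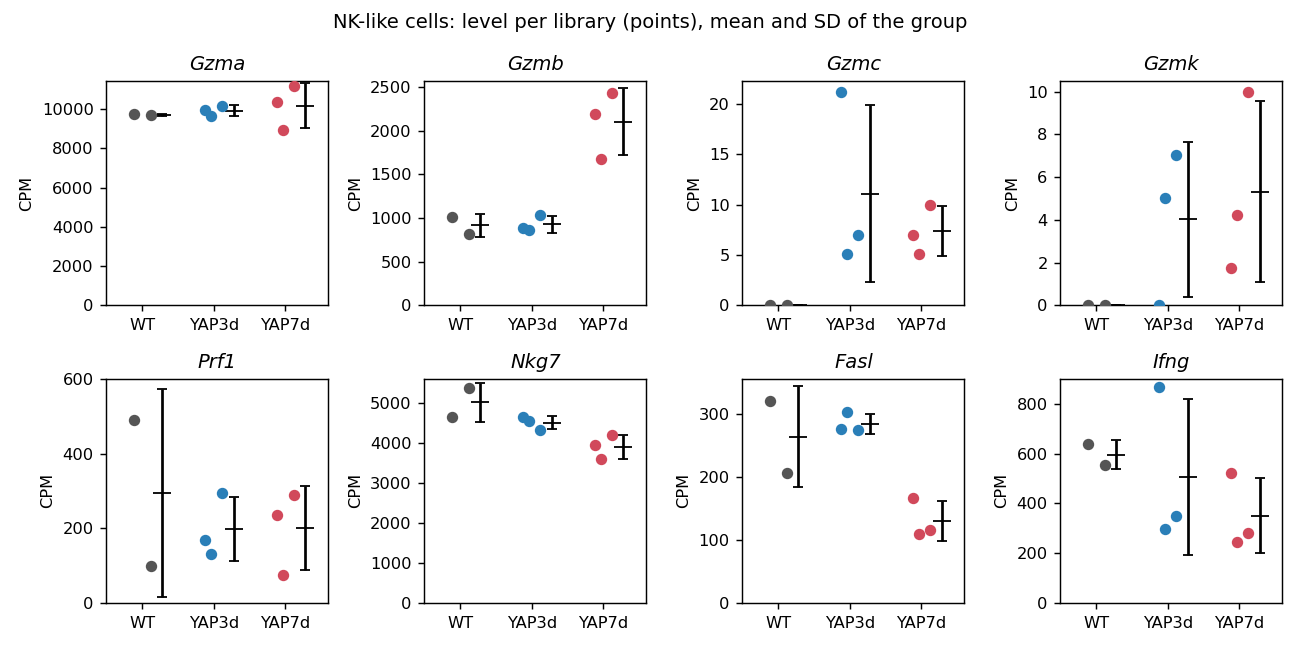
CPM of the members in NK-like cells by group, 1 point per library with at least 10 NK-like cells, with a bar for the group mean and SD. Gzmb stood at 1679.3 to 2430.3 CPM in YAP7d and at 820.0 to 1031.7 CPM in the other groups, while Fasl was lowest in YAP7d and Gzma was level.

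In ILC1-like cells Fasl was lower in the YAP7d libraries that could be tested, and Gzmb was not called. YAP7d replicate 2 had 3 such cells and did not enter, and its Fasl went the other way (290.1 CPM on 6 UMIs). Fasl was at 212.8 and 202.3 CPM in WT, at 170.3, 184.0, 229.1 and 304.0 CPM in YAP3d, and at 28.8 and 79.0 CPM in YAP7d replicates 1 and 3. These YAP7d libraries lay below all WT and YAP3d libraries, on 3 and 20 UMIs. In the same cells the immediate early and heat shock genes summed to 2358.9 and 2509.6 CPM in YAP7d against 4968.6 to 8936.3 CPM elsewhere, and cycling cells were 14.3% and 29.6% against 0% to 4.76%. Without cycling cells the log2 difference of Fasl was -2.03 from YAP3d (adjusted p = 0.0240, edgeR) and -1.91 from WT (adjusted p = 0.0504, edgeR). The part of the immediate early and heat shock genes was not tested.

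The mean of 53.9 ± 35.5 CPM (n = 2) was 0.275-fold that of YAP3d (221.9 ± 60.3, n = 4; log2 fold change -1.86, SE 0.42, adjusted p = 0.0122, edgeR) and 0.315-fold that of WT (207.5 ± 7.49, n = 2; log2 fold change -1.67, SE 0.47, adjusted p = 0.0495, edgeR). Of 6 members tested, Fasl was the 1 called in each of these comparisons, where 4.32% (from WT) and 7.17% (from YAP3d) of 1688 genes were called. Between YAP3d and WT 0% were. The call against WT ended without WT replicate 1 or 2 (adjusted p = 0.239 and 0.196, edgeR), without YAP3d replicate 1, 2 or 3 (0.0604, 0.0730 and 0.0677) and without YAP7d replicate 1 (0.129). The call against YAP3d ended without YAP3d replicate 4 (0.0581). Per cell, Fasl was at 0.214 and 0.741 UMIs in YAP7d and 0.700 to 1.26 elsewhere.

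Gzmb in ILC1-like cells was at 4518.8 and 3704.4 CPM in WT, at 5910.7, 3404.4, 3258.7 and 4656.9 in YAP3d and at 1898.6 and 4161.6 in YAP7d. YAP7d replicate 1 was the lowest library and replicate 3 lay inside the other groups (log2 difference -0.36 from WT and -0.39 from YAP3d, adjusted p = 0.627 and 0.492, edgeR). Gzma showed the same library apart, at 8088.0 and 9335.4 CPM in WT, 5351.2, 8372.9, 6059.2 and 5724.3 in YAP3d and 1198.6 and 6303.6 in YAP7d (adjusted p = 0.193 and 0.409, edgeR). In YAP7d replicate 1 a Cd3 UMI was found in 35.7% of ILC1-like cells, against 58.8% to 88.1% in the other libraries. No fit without these cells could be made, since no library kept 10 ILC1-like cells without Cd3. Without replicate 3, which leaves YAP7d replicate 1 with its 14 cells as the only YAP7d library, the log2 difference of Gzma was -2.93 from WT and -2.46 from YAP3d and that of Gzmb -1.23 from YAP3d. These passed the threshold only on the spread of the other groups, since 1 library has none of its own.

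Gzmc in ILC1-like cells ranged from 25.5 CPM in YAP3d replicate 3 to 1556.7 CPM in YAP3d replicate 1. WT stood at 671.3 and 761.1 CPM and YAP7d at 47.9 and 517.7 CPM (log2 difference -1.09 from WT, adjusted p = 0.442, edgeR). Ifng was at 458.4 and 377.9 CPM in WT, at 681.1, 337.4, 305.5 and 342.0 in YAP3d and at 239.7 and 130.4 in YAP7d. Both YAP7d libraries were the lowest, with log2 differences of -1.20 from WT and -1.13 from YAP3d that missed the threshold (adjusted p = 0.0785 and 0.0503, edgeR). Without YAP7d replicate 1 both passed it (-1.52 and -1.46, adjusted p = 0.0356 and 0.0249, edgeR), and without YAP3d replicate 4 the second did (-1.30, adjusted p = 0.0470, edgeR). Nkg7 was also lowest in YAP7d, at 2828.8 and 2513.5 CPM against 3360.6 to 3913.0 CPM, and was not called (adjusted p = 0.301 and 0.344, edgeR). Prf1 was too rare to be tested, at 24.3 to 107.3 CPM in WT and YAP3d and 28.8 and 23.7 CPM in YAP7d.

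**Figure D3:**
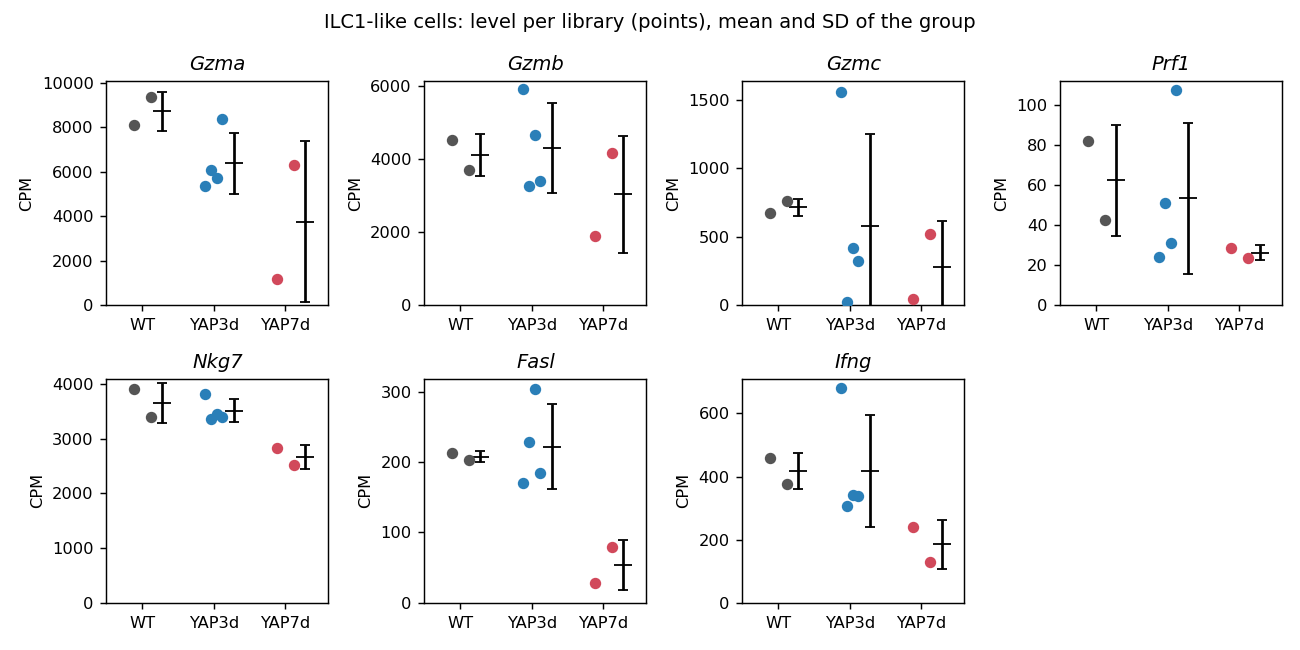
CPM of 7 members in ILC1-like cells by group, 1 point per library with at least 10 ILC1-like cells, with a bar for the group mean and SD. Fasl was at 28.8 and 79.0 CPM in the 2 YAP7d libraries and at 170.3 to 304.0 CPM in the others, and Gzma and Gzmb of YAP7d replicate 1 lay below all other libraries.

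The change of a gene in NK-like cells was then set against its change in ILC1-like cells of the same libraries, in 1 model over the 7 libraries with both classes. For Gzmb the log2 change from WT to YAP7d was 1.6 larger in NK-like cells (SE 0.28, adjusted p = 0.00177, edgeR), and that from YAP3d to YAP7d 1.66 larger (SE 0.25, adjusted p = 5.70e-05, edgeR). For Gzma the first of these was 1.55 (SE 0.33, adjusted p = 0.0172, edgeR) and the second 1.03 (adjusted p = 0.259, edgeR). Of 3908 genes, 0.154% and 0.256% were called in these tests.

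Both results depend on YAP7d replicate 1. Without it the Gzmb difference was 0.93 from WT (adjusted p = 0.0723, edgeR) and 0.96 from YAP3d (adjusted p = 0.0152, edgeR), and the Gzma difference 0.43 from WT and -0.12 from YAP3d (adjusted p = 1 for both, edgeR). Without YAP7d replicate 3 the Gzmb differences were 2.50 and 2.57 and the Gzma differences 3.09 and 2.58. Either removal leaves 1 YAP7d library, whose spread is taken from the other groups. Without WT replicate 2 the differences from WT were of like size, 1.66 for Gzmb (SE 0.429) and 1.49 for Gzma (SE 0.463), and were not called (adjusted p = 0.425 and 0.650, edgeR). The Gzma difference from YAP3d became a call without WT replicate 1 (1.05, adjusted p = 0.00902, edgeR) or without YAP3d replicate 4 (1.13, adjusted p = 0.0179, edgeR).

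NKT-like cells gave no call among 5 members tested, where 0.498% of 4420 genes were called between YAP7d and WT, 0% between YAP3d and WT and 1.61% between YAP7d and YAP3d. DESeq2 called 0 of the 5 in each comparison too. At an unadjusted p below 0.05 there were 1, 2 and 2. Gzmb was at 398.3 and 418.1 CPM in WT, at 334.6, 726.0, 478.4 and 307.9 in YAP3d and at 577.0, 765.3 and 634.9 in YAP7d. YAP7d lay above WT and overlapped YAP3d (log2 differences 0.66 and 0.55, adjusted p = 0.479 and 0.316, edgeR).

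Whether Gzmb changed more in NK-like than in NKT-like cells was tested over the 8 libraries with both. The differences of 0.72 from WT and 0.70 from YAP3d were not called (adjusted p = 0.170 and 0.117, edgeR), where 1.37% and 1.13% of 4510 genes were. Fasl in NKT-like cells was at 198.1 to 266.2 CPM in YAP3d and at 90.6, 103.0 and 192.8 CPM in YAP7d, with YAP7d lower in each library and no call (log2 difference -0.65, adjusted p = 0.309, edgeR). Without YAP7d replicate 3 it was called (-1.28, adjusted p = 0.0498, edgeR), as it was where marker UMIs set the class (-0.99, adjusted p = 0.0120, edgeR). Ifng reached 1259.9 CPM in WT replicate 1 and 997.2 CPM in YAP7d replicate 3 and lay between 228.9 and 669.1 CPM in the other 7 libraries.

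**Figure D4:**
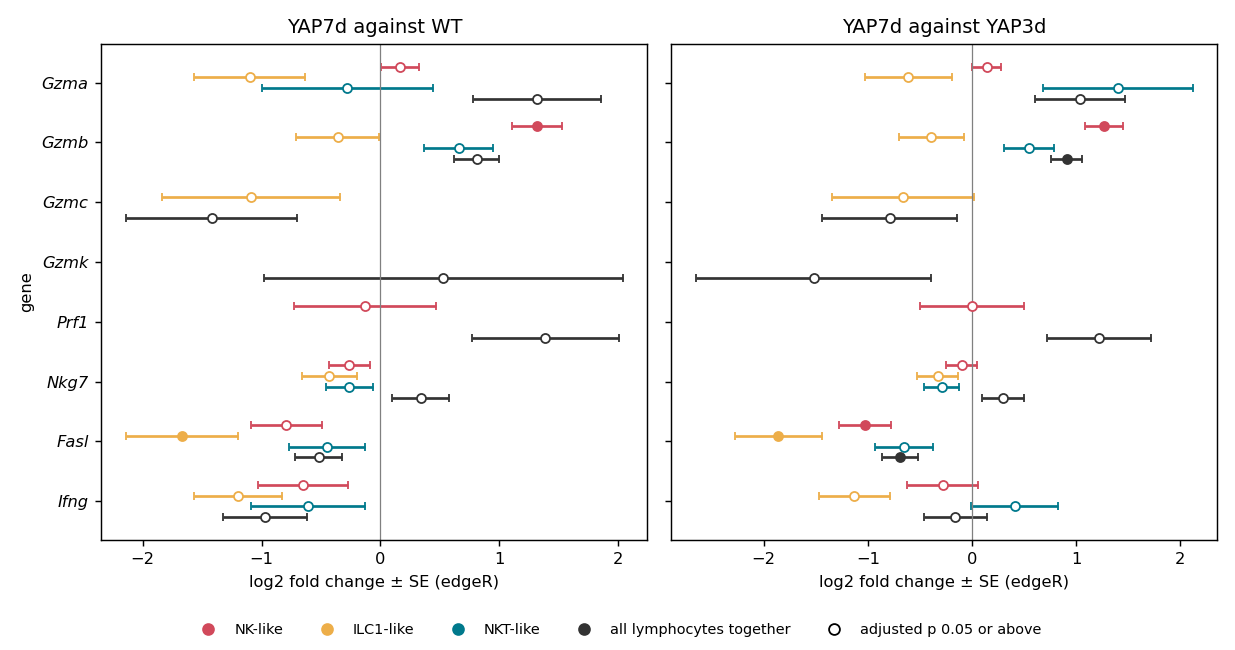
Fitted log2 fold changes of YAP7d against WT and against YAP3d in NK-like, ILC1-like, NKT-like and all lymphocytes, with bars of 1 SE and filled points for an adjusted p below 0.05 (edgeR). Gzmb in NK-like cells was raised by 1.32 against WT and 1.27 against YAP3d, and Fasl in ILC1-like cells stood at -1.67 and -1.86.

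CD8 T cells ran from resting cells near background, apart from Nkg7, to cells rich in granzymes. In resting-CD8-like cells 2 members could be tested, Gzma and Nkg7, and 0 were called by edgeR or DESeq2 at 0.482%, 0.0419% and 0.314% of 4775 genes (YAP7d against WT, YAP3d against WT and YAP7d against YAP3d), with 0 at an unadjusted p below 0.05. Only WT replicate 2 had enough resting-CD8-like cells, so the comparisons with WT rest on 1 WT library. In the Tnfrsf4 cluster 0 of 5 members were called by either tool, where 0% of 2187 genes were in every comparison. There 1 (Gzma) had an unadjusted p below 0.05 in each of the comparisons with WT and 0 had one between YAP7d and YAP3d.

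The Cd200r2 cluster held 25 cells, 22 of them from YAP3d replicate 2. Cd8a was found in 92.0% of its cells, Cxcr6 in 88.0%, Eomes in 48.0% and Mki67 in 32.0%. In that library it held Gzma at 19541.4 CPM, above the 10162.8 CPM of NK-like cells there, and Gzmk at 578.8 CPM, Nkg7 at 6272.7 CPM and Gzmb at 859.6 CPM. Prf1 was at 25.5 CPM, on 3 UMIs, against 294.8 CPM in NK-like cells. These 22 cells gave 2296 of the library's 4354 Gzma UMIs (52.7%) and 68 of its 75 Gzmk UMIs (90.7%).

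All cells with a UMI of a Cd3 gene and of Cd8a or Cd8b1 and none of Cd4 were also pooled. Their Gzma was at 9715.0 CPM in YAP3d replicate 2 and 22 to 1505.1 CPM in the 7 other libraries with at least 10 such cells. YAP3d replicate 1 had 0 Gzma UMIs in 9 of these cells. Without the Cd200r2 cluster that library had 99.9 CPM, inside the range of the rest. Gzmb in the pooled cells without the cluster was at 88.1 to 1463.8 CPM and Nkg7 at 1064.2 to 2015.4 CPM over the 9 libraries. The library with 9 cells is included. Both lay well above the 11.7 and 28 CPM of non-lymphocytes. No other replicate of YAP3d had more than 2 cells of the cluster, so its Gzma and Gzmk describe 1 library.

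**Figure D5:**
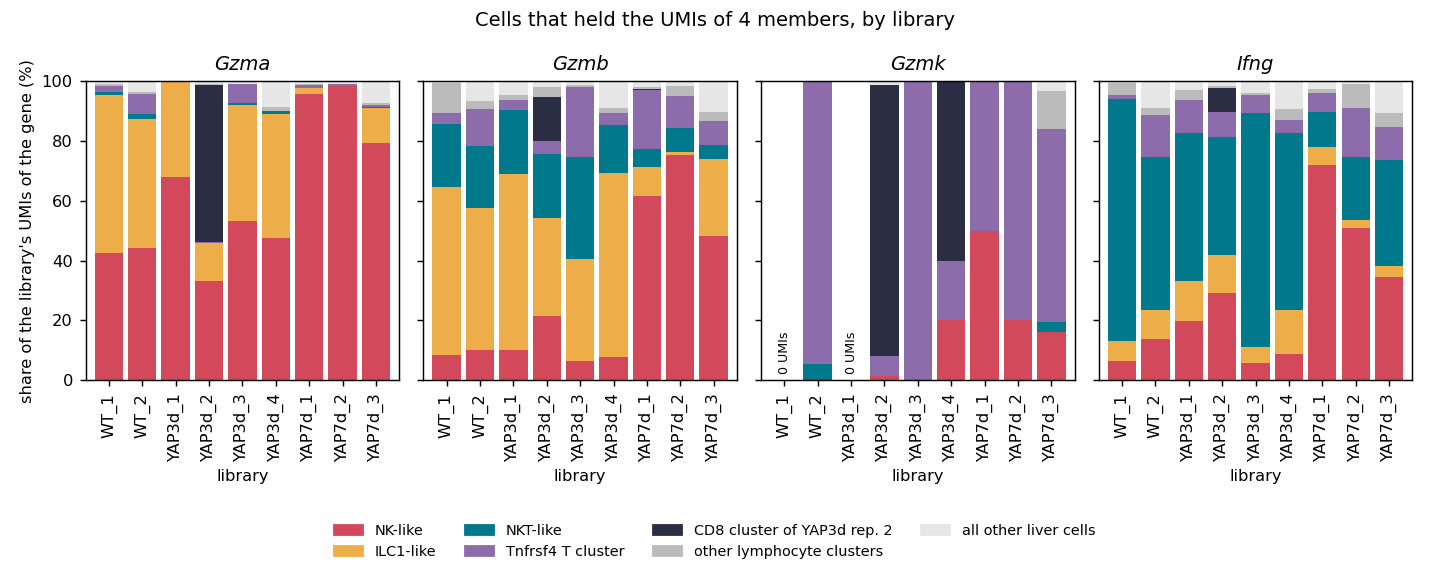
Percent of the UMIs of Gzma, Gzmb, Gzmk and Ifng in each library that came from each class. NK-like cells gave the larger part of Gzma in YAP7d libraries, and the Cd200r2 cluster (the CD8 cluster of YAP3d replicate 2) 52.7% of Gzma and 90.7% of Gzmk in YAP3d replicate 2.

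A sum over all lymphocytes takes in both the level of a member per class and the makeup of the lymphocytes. The part of each was not tested. NK-like cells were 6.96% to 15.9% of lymphocytes in WT and YAP3d and 30% to 38.1% in YAP7d. In such a sum more cells of a class and more RNA per cell cannot be told apart. All 8 members could be tested, and 2 were called between YAP7d and YAP3d, where 8.61% of 7574 genes were called.

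Gzmb was at 892.8 and 675.5 CPM in WT, at 835.6, 844.1, 683.1 and 611.3 in YAP3d and at 1545.6, 1232.9 and 1173.5 in YAP7d. YAP7d lay above both groups (1317.3 ± 199.9 CPM, n = 3, against 743.5 ± 115.1 in YAP3d, n = 4; log2 fold change 0.91, SE 0.15, adjusted p = 0.00469, edgeR). Against WT its log2 difference was 0.81 (SE 0.19, adjusted p = 0.0544, edgeR), and it passed the threshold without YAP3d replicate 2 or 4 (0.80 in both, adjusted p = 0.0485 and 0.0381, edgeR). Fasl went the other way, at 146.4 and 135.4 CPM in WT, 212.1, 166.3, 144.0 and 129.4 in YAP3d and 105.9, 87.5 and 87.5 in YAP7d (93.6 ± 10.6 against 163.0 ± 36.1 in YAP3d; log2 fold change -0.69, SE 0.17, adjusted p = 0.0253, edgeR). The Fasl call ended without YAP3d replicate 1 (adjusted p = 0.0606, edgeR), without any 1 of the YAP7d libraries (0.0550, 0.0850 and 0.0539), at log2 differences of -0.74 to -0.61, and without cycling cells (-0.56, adjusted p = 0.113).

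Between YAP7d and WT 0 of the 8 were called by edgeR in all lymphocytes (0.898% of genes), 1 by DESeq2 (Gzmb) and 5 had an unadjusted p below 0.05. Between YAP3d and WT 0 were called by either tool (0% of genes) and 1 had an unadjusted p below 0.05. Gzma shows how 1 library can set such a sum. It was at 1690.4 and 1920.8 CPM in WT, at 1465.4, 5470.9, 1117.0 and 1122.7 in YAP3d and at 4763.7, 4369.5 and 3940.7 in YAP7d, with YAP3d replicate 2 above every YAP7d library. The log2 difference between YAP7d and YAP3d was 1.04 with all libraries (adjusted p = 0.151, edgeR), 1.87 without YAP3d replicate 2 (adjusted p = 2.57e-04, edgeR) and 1.47 without the Cd200r2 cluster (adjusted p = 0.00625, edgeR). Without that library Gzma was also called against WT (1.32, adjusted p = 0.0152, edgeR), and Prf1 against YAP3d (1.75, adjusted p = 0.0463, edgeR).

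Shares of lymphocytes with a UMI were compared after thinning each cell to 1000 UMIs, which left out 6 of 570 WT, 11 of 1097 YAP3d and 0 of 647 YAP7d cells. Fasl was found in 3.37% to 11.1% of YAP7d and 11.5% to 17.2% of YAP3d cells by library (two-sided exact permutation test over 3 and 4 libraries, p = 0.0571, adjusted p over the 8 members 0.229). With cells thinned to 500 UMIs the ranges overlapped, at 3.71% to 6.74% and 5.10% to 13.8% (exact permutation p = 0.229), and with 1500 they did not, at 13% to 16.0% and 17.0% to 25.3%. Without thinning the means were 41.0% ± 3.44 and 42.2% ± 9.91 (exact permutation p = 0.857). Ifng was found in 11.9% ± 1.12 of YAP7d and 17.0% ± 6.76 of YAP3d cells at 1000 UMIs (exact permutation p = 0.0571, adjusted p = 0.229). Without YAP3d replicate 1 the YAP3d mean was 13.6%. At 500 UMIs the order of the Ifng means turned, to 9.73% and 8.72% (exact permutation p = 0.743). At 1500 the ranges overlapped, at 15.7% to 24.9% and 18.8% to 31.3% (exact permutation p = 0.571). Without thinning Ifng was found in 43.4% ± 4.06 and 41.5% ± 11.3 (exact permutation p = 0.857). Gzma was found in 38.0% ± 5.81 and 20.3% ± 12.1 (exact permutation p = 0.114, adjusted p = 0.305). The smallest two-sided p that 3 against 4 libraries allow in this test is 0.0571, so it could call none of the 8 members.

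Other genes of the pathway were read from 9 lists (77 genes). In NK-like cells, where 5.57% of all genes were called between YAP3d and YAP7d, 2 of 6 tested regulators of effector genes fell, Zeb2 (300.9 ± 106.6 to 86.7 ± 41.1 CPM, n = 3 each; log2 fold change -1.71, adjusted p = 0.0162, edgeR) and Tbx21, which encodes T-bet (204.0 ± 57.6 to 93.4 ± 9.31 CPM; -1.07, adjusted p = 0.0313, edgeR). The median of that list was -0.95, beside -0.03 over all genes. Of 6 cytokine receptors Il18r1, the receptor of interleukin 18, fell (-1.52, adjusted p = 0.0242), and of 3 inhibitory receptors Klrg1, a marker of mature NK cells, fell (-1.41, adjusted p = 0.0366). Between YAP7d and WT none of these lists had a call in NK-like cells, the smallest of them with 3 genes tested. Irf1, a transcription factor that interferon gamma induces, fell in the NK-like cells too (194.9 ± 52.2 to 66.2 ± 16.6 CPM; -1.43, adjusted p = 0.0261, edgeR). Granule proteins (5 tested, with Ctsw and Srgn at the highest levels) and granule release genes (5 tested, with Coro1a and Vamp8 highest) gave 0 calls in NK-like cells in each comparison, with medians between YAP3d and YAP7d of -0.20 and -0.15.

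In ILC1-like cells Il21r, the receptor of interleukin 21, fell against both groups (304.6 ± 9.21 CPM in WT, n = 2, and 283.1 ± 60.0 in YAP3d, n = 4, to 101.0 ± 19.9 in YAP7d, n = 2; log2 fold changes -1.57 and -1.43, adjusted p = 0.0160 and 0.0126, edgeR). The NK receptor Klrd1 fell against both as well (-0.97 and -0.90, adjusted p = 0.0280 and 0.0149, edgeR), Slamf7 against WT (-1.71, adjusted p = 0.0186), Cd244 against YAP3d (-1.07, adjusted p = 0.0459), and Hopx, a regulator, and the receptor Cd160 against YAP3d (-1.34 and -1.06, adjusted p = 0.0199 and 0.0247). These were 1 of 3 cytokine receptors and 2 of 7 activating receptors tested against either group, and 1 of 5 regulators and 1 of 3 inhibitory receptors against YAP3d, where 4.32% (from WT) and 7.17% (from YAP3d) of all genes were called. In NKT-like cells Il21r fell against YAP3d (-1.18, adjusted p = 0.0149, edgeR), 1 of 7 cytokine receptors, and Cd160 against YAP3d and WT (-1.07 and -1.03, adjusted p = 0.0132 and 0.0493, edgeR), 1 of 2 inhibitory receptors, where 1.61% and 0.498% of all genes were called.

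Summed over all lymphocytes, where 8.61% of genes were called and NK-like cells went from 6.96% to 15.9% of cells to 30% to 38.1%, 3 of 6 granzyme and caspase inhibitors rose between YAP3d and YAP7d, among them Serpinb9, the inhibitor of granzyme B (97.0 ± 24.5 CPM, n = 4, to 272.0 ± 20.1, n = 3; log2 fold change 1.53, adjusted p = 0.00197, edgeR), Serpina3g (1.16, adjusted p = 0.0141) and Serpinb6b (0.86, adjusted p = 0.0146). The granzyme Gzmm rose too (2.32 ± 1.62 to 17.7 ± 7.68 CPM; 2.78, adjusted p = 0.0117). None of these was called within NK-like, ILC1-like or NKT-like cells. In the same sums 2 of 8 regulators fell, Hopx (198.0 ± 67.0 to 81.5 ± 16.5 CPM; -1.18, adjusted p = 0.00985, edgeR) and Zfp683 (11.9 ± 3.82 to 3.12 ± 1.33 CPM; -1.91, adjusted p = 0.0410). The receptor Il21r, 1 of 8 cytokine receptors, fell too (-1.27, adjusted p = 0.00229, edgeR), as did Cd160, 1 of 5 inhibitory receptors (-0.84, adjusted p = 0.0271). Of 9 activating receptors and adaptors, the adaptor Tyrobp rose (1.11, adjusted p = 0.0159, edgeR) and the receptor Cd226 fell (-0.95, adjusted p = 0.0483).

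On the receiving side, Fas, the receptor of Fasl, fell in endothelial-like cells. WT held 171.4 ± 6.70 CPM (2 libraries), YAP3d 115.4 ± 20.9 (4 libraries) and YAP7d 56.4 ± 2.22 (3 libraries), with no overlap between groups (log2 fold changes of YAP7d -1.53 and -0.95, adjusted p = 2.34e-04 and 0.00631, edgeR). Irf1 fell in the same cells against WT (187.9 ± 10.1 to 84.2 ± 13.7 CPM; -1.10, adjusted p = 0.00131, edgeR) and against YAP3d (-0.83, adjusted p = 0.00612), as did the kinase Jak1 (-0.71 and -0.72, adjusted p = 0.0423 and 0.0234). Bid, which granzyme B cleaves, rose there (6.65 ± 1.42 CPM in YAP3d to 20.3 ± 8.10; 1.70, adjusted p = 0.0211, edgeR). Of 7530 genes tested in endothelial-like cells, 18.3% were called against WT and 17.3% against YAP3d, so a call was common there.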

How the data were processed

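The deposited table held UMI counts per gene and cell from droplet libraries, made by the authors with Cell Ranger at its default settings on mm10, and Seurat 2 was used downstream, with no further scaling of the counts. The labels name both the v2 and v3 Chromium kits, and the study's methods give v2 for these whole-liver libraries. Library names in the cell barcodes gave the groups. Members and gene lists were chosen with earlier results of these data known.

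A minimum of 200 genes per cell removed 35 cells. The rest were clustered in scanpy 1.11.5 (30 principal components, Leiden resolution 1) without the 8 members, and lymphocytes were clustered again with 30 neighbours. A cluster was named only with at least 3 of a fixed list of markers raised. T cell receptor constant genes were not analysed here, so the gamma-delta marker gate was not run. The 60 doublets that Scrublet called were kept, and leaving them out was an alternative.

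UMIs were summed per library and class (at least 10 cells) and tested with edgeR 4.0.16 (filterByExpr, TMM, glmQLFit, glmQLFTest, all groups in 1 fit, Benjamini-Hochberg over all genes tested). DESeq2 1.42.0 was an alternative. All 8 members are reported. Other genes are named where an adjusted p was below 0.05, at most 4 per list and comparison, or else the 2 with the highest level. Those named in endothelial-like cells lie outside that rule and were chosen after their values were seen. The tests were checked on simulated counts. There the share of false calls ran above the threshold in several fits, those of NK-like cells among them. Fewer of the set changes were recovered in resting-CD8-like cells than in the other classes. Shares of cells used scipy 1.17.1, and intervals cover counting error only. Promoters and gene positions came from RefSeq tables (GRCm38.p6), in which 8 of 8 members matched.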

Additional observations from a re-analysis of the deposited data

Results flagged for a closer look

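In groups of 4 libraries, 4 values stood far from the other 3. Gzma over all lymphocytes of YAP3d replicate 2 was at 5470.9 CPM against 1465.4 in the next library, with the Cd200r2 cluster present in that library. Gzmb in the Tnfrsf4 cluster of YAP3d replicate 3 was at 1350.3 CPM against 396.3. Ifng was at 681.1 CPM in ILC1-like cells of YAP3d replicate 1 against 342.0, and at 669.1 CPM in NKT-like cells of YAP3d replicate 3 against 391.6. In all 24 such groups were examined, and chance marks about 1 in 20.

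The change of a gene differed between NK-like and ILC1-like cells in 3 tests. For Gzmb the difference of log2 changes was 1.6 (YAP7d against WT) and 1.66 (YAP7d against YAP3d), and for Gzma it was 1.55 (YAP7d against WT). Without YAP7d replicate 1 these were 0.93, 0.96 and 0.43.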

How the results depend on the processing

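Counts of called pairs of a member and a class moved with the settings. Between YAP7d and WT (2 pairs) they were 1 with DESeq2, with only the 2 groups compared, with marker gates, without cycling cells and with at least 20 cells, and 0 with cells thinned to 1000 UMIs or a term for Gm10709, 4 with a term for libraries with over 1000 cells, and leaving out 1 library gave 0 to 3. Between YAP3d and WT (0 pairs) they were 3 with no filter on low counts or Leiden resolution 0.6, and 1 with resolution 1.6 or at least 20 cells. Between YAP7d and YAP3d (3 pairs) they were 5 with resolution 1.6 or the term for libraries with over 1000 cells and 1 with thinning, at least 20 cells or the Gm10709 term, and 2 to 5 without 1 library. Over all lymphocytes the members called between YAP7d and WT (0) were 5 with no filter, 3 with the term for libraries with over 1000 cells, and 1 with DESeq2, only the 2 groups, marker gates, no cells with Cd3 among NK-like and ILC1-like, or no Cd200r2 cluster, and 0 to 2 without 1 library. Between YAP3d and WT (0) there was 1 with no filter. Between YAP7d and YAP3d (2) there were 6 with no filter, 4 with the term for libraries with over 1000 cells, 1 without cycling cells, 0 with thinning or the Gm10709 term, and 1 to 4 without 1 library. The Gm10709 term, the term for libraries with over 1000 cells, the cells without Cd3, the cluster left out and the libraries left out of the test between NK-like and ILC1-like cells were added after seeing the data. Gzmb in the Tnfrsf4 cluster between YAP3d and WT turned to -1.68 at resolution 0.6. The causes were not tested. Thinned shares gave 0 calls, but the permutation test cannot make any (smallest p 0.0571, and 0.1 or 0.133 without 1 library), so this says nothing of stability.

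Gzmb in NK-like cells was called against WT in 22 of 26 alternatives (log2 0.99 to 1.55) and against YAP3d in 25 of 26, and Fasl in NK-like cells against YAP3d in 13 of 26. Fasl in ILC1-like cells was called against YAP3d in 20 of 23 alternatives and against WT in 8 of 22. The alternatives include leaving out YAP3d replicate 3 for NK-like cells and YAP7d replicate 2 for ILC1-like cells. Neither library was in the main fit of its class, so these alternatives only repeat that fit.

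Whether the replicate numbers pair the libraries could not be settled. The correlations of the 7 same-number pairs ran from -0.352 to 0.386, and 3 of 8 libraries correlated best with their own number. The replicate 1 libraries stood at 0.31 to 0.39 with each other. The 2 WT libraries deviate from their mean in mirror image, so the pairs are not independent. With the replicate number as a block, the called pairs were 2 (YAP7d against WT), 2 (YAP3d against WT) and 2 (YAP7d against YAP3d), and the members called over all lymphocytes 4, 1 and 4.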
